A study of Mus musculus with 14 samples.

Results

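The respiratory chain genes are the protein-coding genes whose products build the 5 complexes of oxidative phosphorylation. They were taken as every protein-coding gene of the mitochondrial chromosome and every nuclear gene whose symbol starts with Nduf and a subunit letter, Sdh, Uqc, Cox (families 4 to 8 with letters a to c) or Atp5. This rule found 97 of the 55335 genes in the count table: 13 mitochondrial and 84 nuclear genes. No expression value entered the choice. The 84 nuclear genes held 36 members of complex I, 4 of complex II, 8 of complex III, 18 of complex IV and 18 of complex V, with Ndufa4 and its paralogue Ndufa4l2 placed in complex IV. The 13 mitochondrial genes held 7 of complex I, 1 of complex III, 3 of complex IV and 2 of complex V. In all, 93 genes passed the filter on low counts. Cox7b2, Cox8c and a second Atp5o entry had 0 counts in every library, and Cox8b had 5 counts in 1 IgG RIT library and 0 elsewhere.

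Electrons from NADH and succinate enter the chain at complexes I and II, pass through complex III and cytochrome c to complex IV, and are handed to oxygen, while complexes I, III and IV pump protons that drive the ATP synthase, complex V. Complex II is encoded wholly in the nucleus, and the other complexes join nuclear subunits to a few subunits made inside the mitochondrion. Mitochondrial genes are read as long joint transcripts from the mitochondrial chromosome and nuclear subunits from separate promoters, so the amounts of the 2 kinds of RNA are set by different machinery.

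The libraries came from marrow cells of mice with the Cdh5 CRE Rosa26 TdTomato genotype in every group; the Cdh5 promoter drives Cre in endothelium and switches on a red reporter, and the labels do not say whether the Cre is inducible. Cells were sorted as negative for lineage markers and CD45 and positive for TdTomato, and RNA was amplified with a low-input SMART-Seq kit. There were 4 groups. Untreated mice gave 4 libraries. Mice given 500 cGy of total body irradiation from a caesium source (TBI) gave 5 libraries, with no replicate 2 among them. Mice given 20 µCi of a radiolabelled IgG (IgG RIT) gave 3 libraries. Mice given 20 µCi of radioimmunotherapy directed at CD45 (CD45 RIT) gave 2 libraries. The treated groups were harvested 8 days after treatment. The series title names an isotope of astatine for the CD45 conjugate. Age and sex of the mice are not given in the sources used here, nor whether each library is a separate animal, so p-values measure only the spread between these samples, which may be technical.

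Total counts ranged from 16412779 to 31077588 per library. CD45 RIT replicate 2 had counts for 17700 genes, against 20994 to 26752 in the other 13 libraries. Of the endothelial markers, Cdh5 had 0 to 6 counts in untreated and 0 to 5 in TBI libraries and 0 in all RIT libraries, and Emcn 0 to 108 in untreated, 0 to 11 in TBI, 0 to 15 in IgG RIT and 0 in both CD45 RIT libraries. Pecam1 had 894 to 1957 counts in untreated, 44 to 820 in TBI, 72 to 171 in IgG RIT and 6 and 4 in CD45 RIT libraries. The 13 endothelial markers summed to 150 to 189 CPM (reads scaled to a common library total) in untreated, 75.2 to 132 in TBI, 62.0 to 68.6 in IgG RIT and 45.1 to 251 in CD45 RIT libraries. The list went both ways in CD45 RIT. Of its 11 tested genes, 3 rose and 3 fell against untreated (27.3% each). Of all genes, 14.5% rose and 18.6% fell there (edgeR quasi-likelihood test, adjusted p under 0.05). Against IgG RIT, 4 rose, Flt4 among them, and 2 fell (36.4% and 18.2%), where 20.2% and 17.5% of all genes did. Ptprc, the gene of CD45, had counts in every library although CD45 was gated out. It had 1578 to 3273 counts in untreated, 71 to 1424 in TBI, 78 to 286 in IgG RIT and 1 and 662 in CD45 RIT libraries. Summed erythroid markers (11 genes) made 8136 to 14968 CPM in untreated, 25715 to 176045 in TBI, 133679 to 141895 in IgG RIT and 47406 to 191606 in CD45 RIT libraries. TBI replicate 6, at 176045 CPM, lay above all IgG RIT libraries in that measure, and several results below are given without it. Library names in the labels were numbered 1 to 9 for untreated replicates and for TBI replicates 1 to 5, and 10 to 16 for TBI replicate 6 and both RIT groups; whether these numbers mark processing order is not given, and such an order and the RIT treatments cannot be told apart.

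Taken as sums scaled by each library's total counts, nuclear respiratory chain RNA was lowest in CD45 RIT, and mitochondrial RNA was not. The 84 nuclear genes summed to 20515, 27219, 21935 and 21602 CPM in the untreated libraries. They summed to 23042, 20542, 21832, 20713 and 17711 CPM in TBI, to 15842, 18820 and 17592 CPM in IgG RIT, and to 9660 and 8202 CPM in CD45 RIT. Both CD45 RIT libraries lay below all other libraries, and the 3 IgG RIT libraries lay below all untreated libraries. The 13 mitochondrial genes summed to 7139, 6021, 6188 and 6756 CPM in untreated libraries and to 3912, 5782, 6651, 4421 and 6550 CPM in TBI. They summed to 8066, 8667 and 6887 CPM in IgG RIT and to 4820 and 8330 CPM in CD45 RIT, 1 value below and 1 above every untreated library. With TMM-scaled library sizes, the scale used for single genes (chosen for these sums after seeing the data), the nuclear sums spanned 16690 to 22463 CPM in untreated libraries, 17316 to 20854 CPM after TBI and 19857 to 21474 CPM after IgG RIT, and were 13727 and 10578 CPM after CD45 RIT. On that scale the IgG RIT libraries overlapped the untreated ones, and both CD45 RIT libraries were still below all others. The mitochondrial sums on that scale spanned 4969 to 5881 CPM in untreated libraries, 3298 to 7712 CPM after TBI and 8247 to 10110 CPM after IgG RIT, and were 6849 and 10743 CPM after CD45 RIT. All 3 IgG RIT and both CD45 RIT libraries were then above every untreated library. In bulk RNA, fewer cells of a type and less RNA per cell cannot be told apart.

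The ratio of mitochondrial to nuclear respiratory chain counts does not depend on how libraries are scaled. It was 0.348, 0.221, 0.282 and 0.313 in untreated libraries, a mean of 0.291 ± 0.0538 (SD, n = 4), and 0.170, 0.281, 0.305, 0.213 and 0.370 in TBI, a mean of 0.268 ± 0.0783 (SD, n = 5). It was 0.509, 0.461 and 0.391 in IgG RIT, a mean of 0.454 ± 0.0591 (SD, n = 3), and 0.499 and 1.02 in CD45 RIT, a mean of 0.757 ± 0.365 (SD, n = 2). All 5 RIT libraries lay above all 9 untreated and TBI libraries, and the untreated and TBI ranges overlapped. The highest TBI ratio, 0.370, was that of replicate 6. As a sum over genes, the ratio was given no test.

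**Figure D1:**
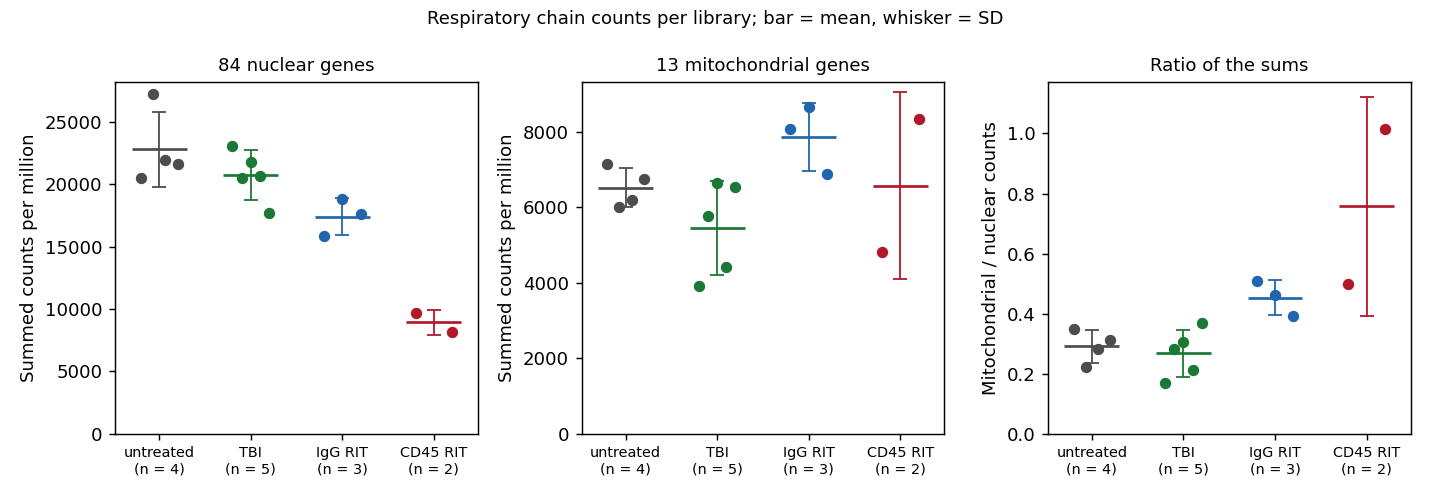
Summed CPM of the 84 nuclear genes (left) and the 13 mitochondrial genes (middle) and the ratio of the sums (right) in each library, by group; points are libraries, bars means and whiskers SD. The 2 CD45 RIT libraries are lowest in nuclear counts, and the RIT libraries have the 5 highest ratios, from 0.391 to 1.02.

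By complex, the ratio in complex III ran from 0.411 to 0.813 in untreated libraries and stood at 1.11 and 3.29 in CD45 RIT, where 1 mitochondrial gene (mt-Cytb) is set against 8 nuclear genes. In complex I it ran from 0.329 to 0.449 in untreated libraries, was 0.586, 0.530 and 0.458 in IgG RIT, and was 0.611 and 1.42 in CD45 RIT. In complex IV it ran from 0.368 to 0.679 in untreated libraries, was 1.18, 1.01 and 0.874 in IgG RIT, and was 0.959 and 1.34 in CD45 RIT. In each of these 3 complexes both CD45 RIT libraries were above every untreated library, and in complexes I and IV so were all IgG RIT libraries. The TBI ratios ran from 0.236 to 0.524 in complex I, 0.309 to 0.760 in complex III and 0.406 to 0.960 in complex IV. They overlapped the IgG RIT ratios in all 3 complexes, with IgG RIT at 0.643 to 0.877 in complex III. In complex IV, TBI replicate 6 at 0.960 also lay above CD45 RIT replicate 1. Complex II, with no mitochondrial subunit, summed on total counts to 1201 to 1482 CPM in untreated libraries, 754 to 1501 CPM in TBI, 704 to 728 CPM in IgG RIT and 430 and 452 CPM in CD45 RIT.

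Among members, levels compared per length in untreated libraries were highest for mitochondrial genes: mt-Cytb (apocytochrome b of complex III) had 1225 CPM per kb, mt-Nd1 (a membrane subunit of complex I) 1187 CPM per kb and mt-Co1 (the catalytic core of complex IV) 969 CPM per kb. Of the nuclear genes, Cox6a1 (the broadly expressed form of a small complex IV subunit) was highest at 767 CPM per kb. It was followed in its own complex by Cox6b1 at 529 and Cox8a at 513 CPM per kb, while the leaders of the other complexes were Uqcr11 at 612, Atp5b at 426, Ndufa2 at 411 and Sdhd at 253 CPM per kb. Near-identical nuclear copies of several mitochondrial genes took counts of their own.

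A block of chromosome 1 carries copies of 7 mitochondrial genes at 99% identity or more, and 9 of the 13 genes have a copy of at least 95% identity somewhere in the annotation. The pairs below, from GENCODE M21 models on GRCm38, show how close they are, with capitals at the only base that differs over the aligned stretch (480 bases for mt-Co1 and 345 for mt-Nd3). The mt-Co2 stretch is identical in its copy Gm28661 over all 681 coding bases.
mt-Co1, chrM:6390-6449, plus strand: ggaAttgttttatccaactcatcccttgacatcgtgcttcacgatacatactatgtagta
Gm29216, chr1:24616129-24616188, minus strand: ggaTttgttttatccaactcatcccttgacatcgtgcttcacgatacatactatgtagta
mt-Nd3, chrM:9459-9518, plus strand: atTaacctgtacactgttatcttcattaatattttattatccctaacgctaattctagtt
Gm28438, chr1:24613060-24613119, minus strand: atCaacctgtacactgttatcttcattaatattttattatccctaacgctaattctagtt
mt-Co2, chrM:7013-7072, plus strand: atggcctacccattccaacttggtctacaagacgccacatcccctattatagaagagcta

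Counts given to the 7 copies equalled 8.07% to 15.9% of the mitochondrial counts of the same library. For mt-Atp6 the copy Gm10925 had a mean of 3456 counts per library against 2009 for the gene itself, and for mt-Nd4l the copy Gm10222 had 143.5 against 24.8. For mt-Co2 the copy Gm28661 had a mean of 3056 against 2286, and for mt-Co3 the copy Gm28437 had 7170 against 4126.5. How reads shared between a gene and its copy were assigned is not given in the sources used here, so values of mt-Atp6, mt-Co2, mt-Co3, mt-Nd3 and mt-Nd4l are uncertain. With the copies' counts added, the mean ratio to nuclear counts was 0.328 in untreated, 0.302 in TBI, 0.519 in IgG RIT and 0.837 in CD45 RIT libraries.

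After TBI, almost no member passed the test against untreated. Of the 80 nuclear genes tested, 0 rose and 1 fell, Cox6a2, against 0.921% of all 21509 genes called higher and 3.38% called lower (edgeR quasi-likelihood test, adjusted p under 0.05). DESeq2 called 4 nuclear genes (3 higher, 1 lower), and edgeR with RLE factors called 2 (1 higher, 1 lower). Of the 13 mitochondrial genes, 0 were called, with 0 by DESeq2 as well. The median log2 fold change was -0.06 over the nuclear genes and -0.04 over the mitochondrial genes, beside -0.16 over all genes tested. The catalytic ATP synthase subunit Atp5b, for example, had 1704, 1796, 1755 and 1960 CPM in untreated and 2274, 1916, 2535, 2010 and 2431 CPM in TBI libraries, a log2 difference of 0.31 that did not pass the test. In 2 nuclear genes all TBI libraries lay above all untreated libraries and in 1 below, beside 6.34% and 12.8% of all genes.

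Cox6a2, the heart and muscle form of the subunit that Cox6a1 supplies elsewhere, was the 1 member that differed in each treatment from untreated. It lies on chromosome 7 (GRCm38 chr7:128205435-128206387, minus strand). Its counts were 381, 413, 346 and 349 in untreated libraries, 3, 23, 0, 9 and 0 in TBI, 0, 20 and 9 in IgG RIT, and 1 and 0 in CD45 RIT. Every treated library lay below every untreated library. The log2 fold change was -5.48 in TBI (adjusted p = 0.0251) and -4.53 in IgG RIT (adjusted p = 0.0498). In CD45 RIT, where both libraries were at or under the floor of 3 counts per library, it was at least 70.3-fold lower (adjusted p = 0.0132). The share of Cox6a2 in the counts of Cox6a1 and Cox6a2 together was 1.86% to 2.36% in untreated libraries and at most 0.143% in any treated library. The TBI call was lost when untreated replicate 2, 3 or 4 or TBI replicate 1, 4 or 5 was left out, with log2 fold changes of -5.57 to -5.18 and adjusted p from 0.0505 to 0.0728. The nuclear calls in TBI numbered 2 without CD45 RIT replicate 1 and 3 without CD45 RIT replicate 2. The IgG RIT call was lost in all 7 fits without 1 of its own or the untreated libraries, and without TBI replicate 1 or 5. It was also lost with RLE factors (adjusted p = 0.0580), without the filter (adjusted p = 0.0735), with library sizes that leave out mitochondrial genes (adjusted p = 0.05002) or globin genes (adjusted p = 0.0501), and with the replicate block (adjusted p = 0.11). The block also ended the Cox6a2 calls in TBI (adjusted p = 0.325) and in CD45 RIT (adjusted p = 0.0605).

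The 7 muscle markers, of which 4 passed the filter, summed to 33.3 to 43.6 CPM in untreated and 42.0 to 71.5 in TBI libraries. They summed to 72.9 to 80.4 CPM in IgG RIT and 14.2 to 30.9 CPM in CD45 RIT libraries. The sums thus overlapped untreated in TBI, lay above it in IgG RIT and lay below it in CD45 RIT. Siglech, a receptor of plasmacytoid dendritic cells looked up after Cox6a2 had been seen, had 338, 303, 491 and 351 counts in untreated, 0, 18, 0, 0 and 0 in TBI, 36, 0 and 21 in IgG RIT and 0 and 2 in CD45 RIT libraries. A list of 9 genes of that cell type, picked at the same point, summed to 506 to 668 CPM in untreated, 40.2 to 205 in TBI, 48.3 to 107 in IgG RIT and 305 and 311 CPM in CD45 RIT libraries, with Klk1 at 0 in 13 of the 14 libraries. Members of this list went both ways in CD45 RIT libraries. Bst2 had 4372 and 4178 counts there, against 1598 to 2755 in untreated, and Pacsin1 561 and 1304 against 2 to 71. Irf8 had 122 and 887 counts against 6660 to 8756, and Ly6d 189 and 0 against 1665 to 4652. The part of these genes and of the muscle markers in the Cox6a2 result was not tested.

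After IgG RIT, with TMM scaling, nuclear members were called less often than all genes in either direction, and 2 mitochondrial complex IV genes rose. Of 80 nuclear genes, 3 rose and 1 fell (3.75% and 1.25%), against 5.75% of all genes called higher and 10.7% called lower. The nuclear median was 0.03 and the mitochondrial median 0.62, beside -0.42 over all genes. Of 13 mitochondrial genes, 2 rose, mt-Co1 and mt-Co2, and 8 had all 3 IgG RIT libraries above all untreated libraries, as had 15.6% of all genes. Of the nuclear genes 19 lay wholly above and 13 wholly below untreated, the latter beside 27.4% of all genes.

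mt-Co1 had 1589, 1273, 1474 and 1653 CPM in untreated libraries and 4048, 3886 and 3268 CPM in IgG RIT. Its log2 fold change was 1.32 ± 0.35 (SE; adjusted p = 0.0255), and the groups did not overlap. mt-Co2, which carries the copper site that takes electrons from cytochrome c, had 84.1, 82.2, 65.4 and 62.1 CPM in untreated and 176, 186 and 129 CPM in IgG RIT, a log2 fold change of 1.16 (adjusted p = 0.0327, and 0.105 with no scaling). mt-Co3, the third core subunit, had a log2 difference of 1.04 with an adjusted p of 0.0503. The 7 mitochondrial complex I genes had differences of 0.36 to 0.99 and 0 of 7 were called by edgeR, with 1 at an unadjusted p under 0.05.

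In TBI replicate 6, mt-Co1 was at 3420 CPM and the other 4 TBI libraries at 1075, 1633, 1138 and 1129 CPM. The summed counts of mt-Co1, mt-Co2 and mt-Co3 divided by those of the 7 mt-Nd genes gave 0.838, 0.655, 0.793 and 0.750 in untreated and 1.37, 1.28 and 1.26 in IgG RIT libraries. That quotient was 0.957, 1.06, 0.440, 0.887 and 1.64 in TBI, with replicate 6 highest, and 1.03 and 0.454 in CD45 RIT. The IgG RIT libraries all lay above the untreated ones, whereas the TBI and CD45 RIT groups spanned both sides. With copies added, the IgG RIT quotients were 1.67, 1.61 and 1.53, and the untreated quotients 0.897 to 1.10.

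**Figure D2:**
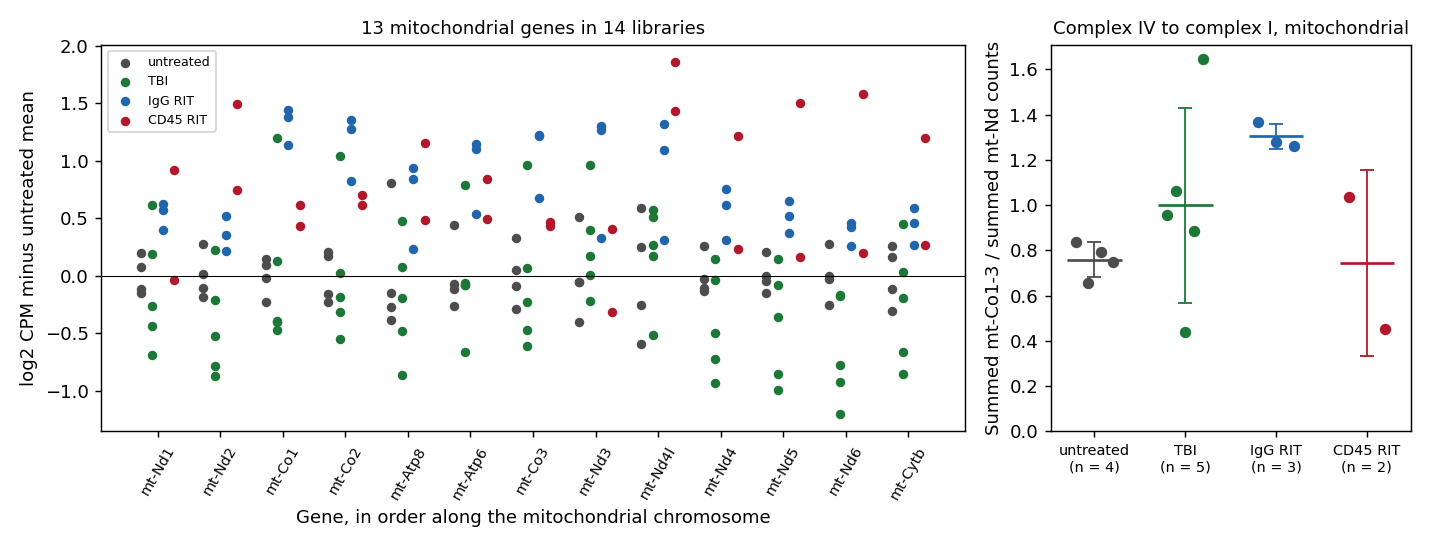
Left, log2 CPM of each mitochondrial gene minus its untreated mean, 1 point per library, coloured by group, in gene order along the chromosome; right, summed mt-Co1, mt-Co2 and mt-Co3 counts over summed mt-Nd counts, with means and SD. At mt-Co1 the 3 IgG RIT libraries and TBI replicate 6 are the 4 highest, and 1 of the 2 CD45 RIT libraries is highest at mt-Nd2, mt-Nd5, mt-Nd6 and mt-Cytb.

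The 3 nuclear genes that rose in IgG RIT were Cox6a1, Ndufb7 (a small accessory subunit of complex I) and Atp5d (the delta subunit of the ATP synthase stalk). Cox6a1 had 451, 653, 548 and 501 CPM in untreated and 919, 1062 and 1076 CPM in IgG RIT libraries, a log2 fold change of 0.92 (adjusted p = 0.0486). TBI replicate 6 had 1000.1 CPM of Cox6a1, and the other TBI libraries had 526.2 to 560 CPM. Ndufb7 had 251, 330, 268 and 246 CPM in untreated and 362, 429 and 496 CPM in IgG RIT, a log2 fold change of 0.65 (adjusted p = 0.0456). Atp5d had 232, 368, 287 and 284 CPM in untreated and 424, 423 and 484 CPM in IgG RIT, a log2 fold change of 0.60 (adjusted p = 0.0354). None of the 3 overlapped between groups. All 3 calls sat near the threshold: 0 of 80 nuclear genes were called without untreated replicate 1, 3 or 4 or without any one IgG RIT library, 1 without TBI replicate 1 or 5, 2 without TBI replicate 3 or 4, 9 without TBI replicate 6, 16 without CD45 RIT replicate 1 and 21 without CD45 RIT replicate 2. The 2 mitochondrial calls became 0 without any one untreated library or without IgG RIT replicate 1 or 2, 4 without TBI replicate 1, TBI replicate 6 or CD45 RIT replicate 1, and 7 without CD45 RIT replicate 2.

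The direction of the nuclear calls in IgG RIT depended on scaling: 15 rose and 0 fell with DESeq2-type size factors in edgeR, and 0 rose and 21 fell with total counts alone. These scalings moved the median of all genes from -0.42 to -0.21 and -0.94. The nuclear median went from 0.03 to 0.24 and -0.49 with them. The share of all genes called was not counted under these scalings, so the comparison with all genes above holds for TMM scaling only. Erythroid markers rose beside these genes in IgG RIT, 7 of 11 tested passing the test upward with a median log2 fold change of 4.03, and summed to 133679 to 141895 CPM against 8136 to 14968 CPM in untreated. Their part in the IgG RIT values was not tested.

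After CD45 RIT, nuclear members of every complex fell and several mitochondrial complex I genes rose. Of 80 nuclear genes, 37 fell and 0 rose, that is 46.2% called lower, against 18.6% of all genes called lower and 14.5% called higher. The nuclear median was -0.65, beside -0.37 over all genes. In 52 of the 80 both CD45 RIT libraries lay below all untreated libraries, as in 29.8% of all genes. By complex, 14 of 36 fell in complex I, 3 of 4 in complex II, 6 of 8 in complex III, 7 of 15 in complex IV and 7 of 17 in complex V, with medians of -0.52, -0.89, -0.91, -0.88 and -0.64. With DESeq2-type size factors 23 fell and with total counts alone 73 fell, and 0 rose in either. These scalings moved the median of all genes to -0.13 and -1.08, and the nuclear median to -0.38 and -1.35. The whole table thus shifted with the scaling. DESeq2 called 29 lower and 2 higher. The share of all genes called was not counted under these settings.

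**Figure D3:**
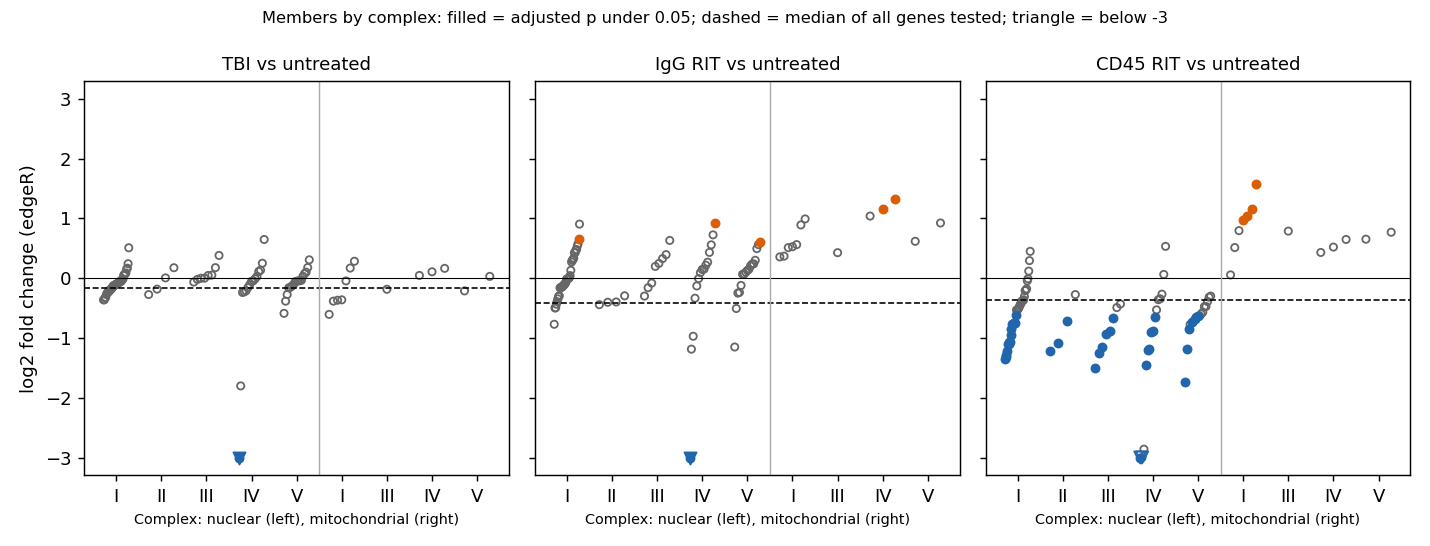
log2 fold changes against untreated for each tested member in TBI, IgG RIT and CD45 RIT, nuclear genes by complex on the left of each panel and mitochondrial genes on the right; filled points passed the test, and the dashed line is the median of all genes. In CD45 RIT 37 nuclear points are filled below 0 and 4 mitochondrial points above 0; triangles at the lower edge are points under -3.

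The largest falls spread over 4 complexes. Atp5g1, which makes subunit c of the proton-driven ring of ATP synthase, had 292, 476, 338 and 386 CPM in untreated and 79.2 and 145 CPM in CD45 RIT libraries. The log2 change was -1.74 ± 0.32 (SE; adjusted p = 0.00174), with no overlap between the groups. The gene has a near-identical copy whose counts equal 15.7% of its own. Atp5g2 and Atp5g3 encode the same mature ring protein, and neither passed the test (-0.60 and -0.32). The share of Atp5g1 in the counts of the 3 genes was 44.5%, 44.2%, 41.7% and 44.1% in untreated, 42.5%, 42.1%, 44.3%, 37.5% and 36.1% in TBI, 33.8%, 35.0% and 38.7% in IgG RIT and 19.0% and 25.7% in CD45 RIT libraries. Both CD45 RIT shares lay below those of all 12 other libraries.

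Uqcrfs1, the Rieske iron-sulfur protein of complex III, had 152, 187, 173 and 192 CPM in untreated and 52.2 and 71.7 CPM in CD45 RIT, which is -1.51 ± 0.20 (SE) on the log2 scale with an adjusted p of 1.86e-04. Its TBI libraries were at 197 to 259 CPM and its IgG RIT libraries at 200 to 222 CPM, so both CD45 RIT libraries were far below all others. The other complex III genes that fell were Uqcr10, Uqcr11, Uqcrb, Uqcrc1 and Uqcrc2, while Uqcrh (-0.43) and Uqcrq (-0.49) did not pass the test.

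Cox5a, a matrix-side subunit of complex IV, had 186, 316, 248 and 246 CPM in untreated and 94.3 and 88.7 CPM in CD45 RIT, a log2 fold change of -1.44 (adjusted p = 6.45e-04). Ndufs6, a zinc-binding accessory subunit of the NADH-oxidising arm of complex I, had 123, 184, 138 and 140 CPM in untreated and 74.8 and 42.4 CPM in CD45 RIT, a log2 fold change of -1.32 (adjusted p = 0.00278). Ndufa10, an accessory subunit of the complex I membrane arm, had 181, 226, 156 and 208 CPM in untreated and 117 and 34.6 CPM in CD45 RIT, a log2 fold change of -1.35 (adjusted p = 0.0160, and 0.0717 with the replicate block). The groups overlapped for none of these 3 genes, and the 2 CD45 RIT values of Ndufa10 differed from each other more than any 2 untreated values did.

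In complex II, which also serves the citric acid cycle, Sdha (the flavoprotein) had 397, 313, 375 and 433 CPM in untreated and 264 and 96.5 CPM in CD45 RIT, a log2 fold change of -1.08 (adjusted p = 0.0265). Sdhb (the iron-sulfur subunit) fell by 0.71 on the log2 scale (adjusted p = 0.0321) and Sdhd (a membrane anchor) fell by 1.22 (adjusted p = 0.00213). The Sdha call was lost without CD45 RIT replicate 2 (-0.57, adjusted p = 0.0972) and without untreated replicate 4 (adjusted p = 0.0542). The Sdhb call was lost with RLE factors (-0.44, adjusted p = 0.117), with DESeq2 (-0.44, adjusted p = 0.0682), with the replicate block (adjusted p = 0.0971), and without untreated replicate 2 or 4 or either CD45 RIT library (adjusted p from 0.0509 to 0.0698). Sdhc, the other anchor, had 90.1, 149, 120 and 121 CPM in untreated and 65.7 and 133 CPM in CD45 RIT and did not pass the test. Its CD45 RIT libraries lay on both sides of the untreated mean.

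Several nuclear members were not called, and Ndufb5 is named here after its values were seen. Cox7a2, the widely expressed form of its subunit, had 168, 311, 221 and 213 CPM in untreated and 259 and 218 CPM in CD45 RIT, a log2 difference of 0.06 that turned to -0.64 (adjusted p = 0.0382) with total counts alone. Ndufb5 had 31.01 and 177 CPM in the 2 CD45 RIT libraries, on either side of the untreated range of 105 to 147 CPM, and Cox7b had 219 and 50.8 CPM.

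**Figure D4:**
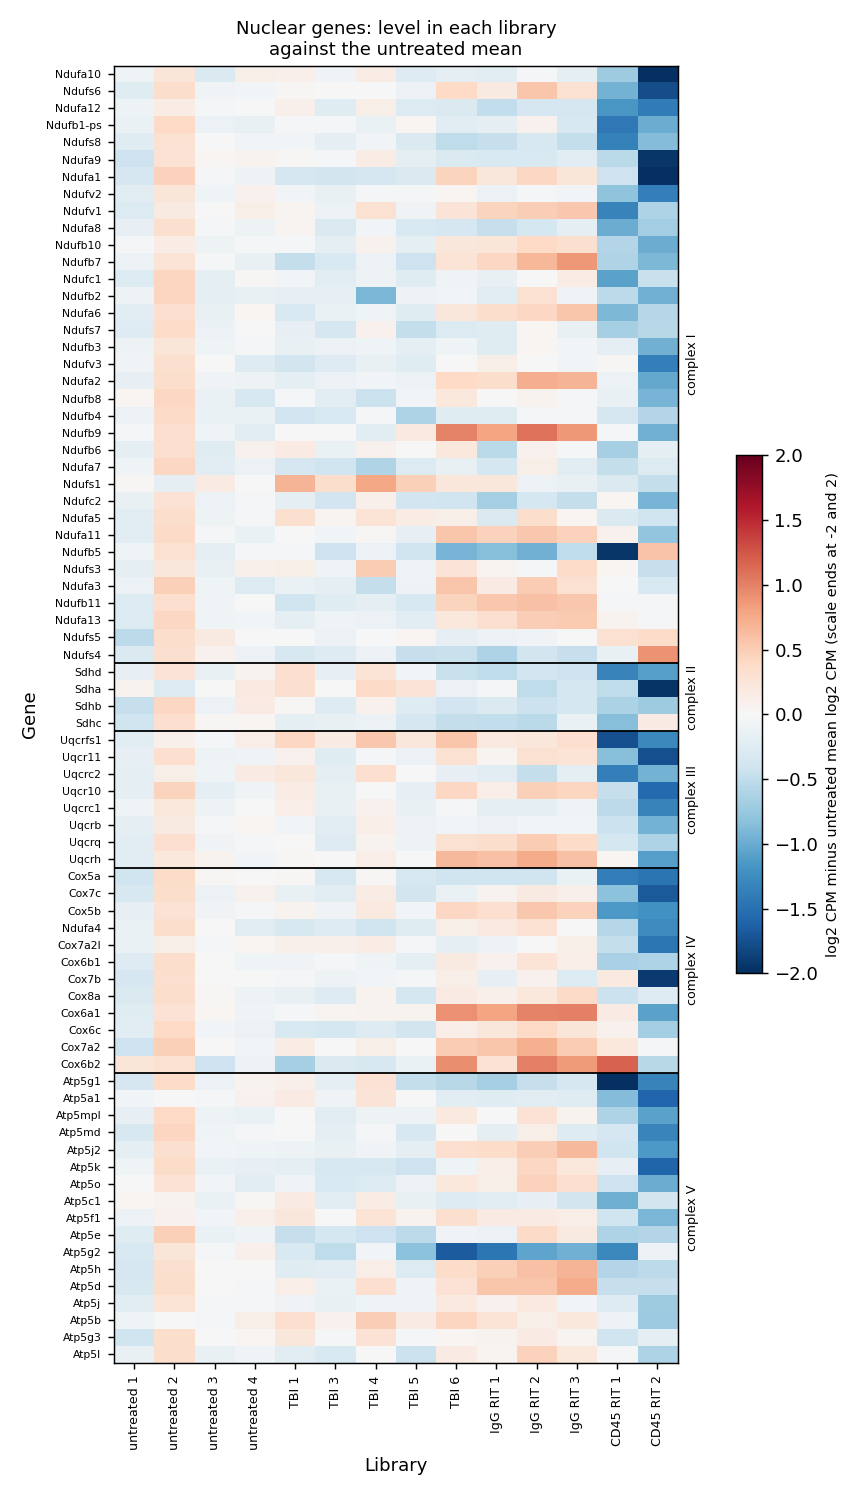
Level of nuclear genes in each of the 14 libraries as log2 CPM minus the untreated mean of that gene, blue lower and red higher, grouped by complex and ordered by the CD45 RIT fold change; Cox6a2, Cox7a1 and Ndufa4l2, with many values at or near 0, are left out. Both CD45 RIT columns are mostly blue and differ from each other in single genes such as Ndufb5 and Cox7b, and TBI replicate 6 looks like the IgG RIT columns in genes such as Cox6a1.

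Of the 13 mitochondrial genes, 4 rose in CD45 RIT, all of complex I: mt-Nd2, mt-Nd4l, mt-Nd5 and mt-Nd6. The mitochondrial median was 0.77. In 7 of 13 both CD45 RIT libraries lay above all untreated libraries, as in 17.5% of all genes. mt-Nd2 had 194, 266, 205 and 222 CPM in untreated and 370 and 620 CPM in CD45 RIT, which is 1.16 ± 0.29 (SE) on the log2 scale with an adjusted p of 0.0104, and the groups did not overlap. mt-Nd5 had 323, 301, 333 and 385 CPM in untreated and 373 and 946 CPM in CD45 RIT, a log2 fold change of 0.98 (adjusted p = 0.0485). mt-Nd6, the only protein gene read from the other strand, had 139, 201, 163 and 166 CPM in untreated and 191 and 496 CPM in CD45 RIT, a log2 fold change of 1.04 (adjusted p = 0.0390). For both of the latter the lower CD45 RIT value fell inside the untreated range.

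mt-Nd4l had 39, 27, 17 and 13 counts in untreated and 30 and 51 in CD45 RIT libraries, a log2 fold change of 1.58 (adjusted p = 0.0353) on few reads. Without CD45 RIT replicate 2, 0 of 13 were called: the log2 difference was 0.70 for mt-Nd2, 1.31 for mt-Nd4l, 0.12 for mt-Nd5 and 0.15 for mt-Nd6. The count was also 2 without untreated replicate 1 or 2, TBI replicate 3 or IgG RIT replicate 2, and 1 without untreated replicate 3 or 4. With total counts alone 0 were called. mt-Co1 had 2285 and 2013 CPM in CD45 RIT, above all 4 untreated libraries, with a log2 difference of 0.52 that did not pass the test.

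Other cell types' markers moved with CD45 RIT. All 10 stromal markers rose, and summed to 38668 and 56510 CPM against 3131 to 7859 CPM in untreated. Of 8 macrophage markers 6 rose and 1 fell; they summed to 2448 and 2529 CPM against 87.2 to 159 CPM, and neutrophil markers to 5.23 and 14.6 CPM against 10274 to 12914 CPM. Erythroid markers summed to 191606 CPM in CD45 RIT replicate 1 and 47406 CPM in replicate 2. Their part in the CD45 RIT values was not tested.

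Set against IgG RIT, CD45 RIT was lower in nuclear members again. Of 80 nuclear genes, 42 fell and 1 rose, against 17.5% of all genes called lower and 20.2% called higher. The nuclear median was -0.78, beside -0.13 over all genes. In 63 nuclear genes both CD45 RIT libraries lay below all IgG RIT libraries, as in 29.6% of all genes, and in 3 above, as in 21.7%. All 8 complex III genes fell, as did 14 of 36 in complex I, 1 of 4 in complex II, 7 of 15 in complex IV and 12 of 17 in complex V. This comparison shares the CD45 RIT libraries with the one against untreated. The largest falls were of Uqcrfs1 (-1.76), Ndufs6 (-1.66), Cox5b (-1.62), Uqcr11 (-1.45) and Ndufv1 (-1.43). Ndufv1, the subunit that binds NADH, had 353, 365 and 378 CPM in IgG RIT and 102 and 169 CPM in CD45 RIT libraries (adjusted p = 6.83e-04), with 214 to 294 CPM in untreated. Cox5b, a zinc-binding subunit of complex IV, had 310, 357 and 338 CPM in IgG RIT and 111 and 107 CPM in CD45 RIT (adjusted p = 1.00e-04), with 220 to 300 CPM in untreated.

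Ndufs4, a subunit needed to finish complex I assembly, was the 1 nuclear gene that rose. It had 56.5, 66.8 and 62.7 CPM in IgG RIT and 77.7 and 161 CPM in CD45 RIT libraries, a log2 fold change of 0.94 (adjusted p = 0.0208), and 70.7 to 108 CPM in untreated. Without CD45 RIT replicate 2 the difference was 0.10, and without IgG RIT replicate 1 it was 0.88 with an adjusted p of 0.0618. Against TBI the difference of Ndufs4 was 0.03 without CD45 RIT replicate 2, and that call was also lost without TBI replicate 1 or 5. Of the 13 mitochondrial genes, 0 were called between the 2 radioimmunotherapies, with 1 at an unadjusted p under 0.05 and 1 called by DESeq2. mt-Co1, called in IgG RIT, and the 4 mt-Nd genes, called in CD45 RIT, were not shown to differ between these groups. Leaving out TBI replicate 4 gave 1 higher, leaving out TBI replicate 6 gave 1 lower and leaving out CD45 RIT replicate 1 gave 3 higher.

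Against TBI, 35 nuclear genes fell and 1 rose (Ndufs4) in CD45 RIT, where 19% of all genes were called lower and 19.6% higher. The nuclear median was -0.59, beside -0.39 over all genes. In 49 nuclear genes both CD45 RIT libraries lay below all TBI libraries, as in 27.6% of all genes, and in 1 above, as in 18.2%. Uqcrfs1 fell by 1.89, Atp5g1 by 1.58 and Ndufs6 by 1.38 on the log2 scale. Of the mitochondrial genes 6 rose: mt-Nd2, mt-Nd4, mt-Nd4l, mt-Nd5, mt-Nd6 and mt-Cytb, with a median over the 13 of 0.97. mt-Nd2, for example, had 121, 154, 258, 128 and 191 CPM in TBI libraries and 370 and 620 CPM in CD45 RIT, a log2 fold change of 1.54 (adjusted p = 0.00100). Without TBI replicate 6, 10 mitochondrial genes rose, and without CD45 RIT replicate 2, 1 did.

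Between IgG RIT and TBI, 0 nuclear and 0 mitochondrial genes were called by edgeR, where 0.0697% of all genes were called higher and 0.172% lower. At an unadjusted p under 0.05 there were 19 of 80 nuclear and 8 of 13 mitochondrial genes, beside 3984 of all 21509 genes. DESeq2 called 10 nuclear and 4 mitochondrial genes, all higher in IgG RIT. The share of all genes called was not counted for DESeq2 or for the fits below that leave out 1 library. The groups did not overlap in 13 nuclear genes that were higher in IgG RIT and 3 that were lower, beside 8.37% and 8.44% of all genes. Without TBI replicate 6, 9 nuclear genes (8 higher, 1 lower) and 6 mitochondrial genes (all higher) were called. Without CD45 RIT replicate 1 the counts were 3 and 4, and without CD45 RIT replicate 2 they were 5 and 4. The mitochondrial median was 0.88 and the nuclear median 0.13, beside -0.16 over all genes.

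Tissue forms of complex IV subunits made up small shares apart from Cox6b2. Cox6b2, known from testis, took 22.6%, 16.6%, 13.5% and 16.8% of the counts of Cox6b1 and Cox6b2 in untreated libraries and 42.5% and 17.8% in CD45 RIT, and was called in no comparison. Cox7a1, the heart and muscle partner of Cox7a2, had at most 42 counts in any library and made at most 0.640% of the pair. It was called lower in CD45 RIT than in TBI, at least 5.82-fold against the floor of 3 counts per library (adjusted p = 0.0495). That call was lost in 12 of the 14 fits that left out 1 library, with adjusted p up to 0.185. Ndufa4l2, a form induced by low oxygen, had 108, 64, 7 and 34 counts in untreated and 7 and 0 in CD45 RIT libraries and was not called.

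Cox4i2, the lung form of the subunit that Cox4i1 supplies elsewhere, does not match the symbol rule and was read from the list of 9 other subunits and carriers. It had 30, 20, 17 and 20 counts in untreated, 7, 1, 0, 3 and 1 in TBI, 1, 1 and 6 in IgG RIT and 59 and 203 in CD45 RIT libraries. Both CD45 RIT libraries were above all others, and the log2 fold change against untreated was 3.33 (adjusted p = 0.0140). That call was lost without CD45 RIT replicate 2 (2.39, adjusted p = 0.125) and with the replicate block (3.20, adjusted p = 0.162). Its share of the Cox4i1 and Cox4i2 counts was 0.0819% to 0.156% in untreated and 0.765% and 2.24% in CD45 RIT. Cox4i1 itself had 504, 729, 533 and 539 CPM in untreated and 466.1 and 426 CPM in CD45 RIT and was not called.

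**Figure D5:**
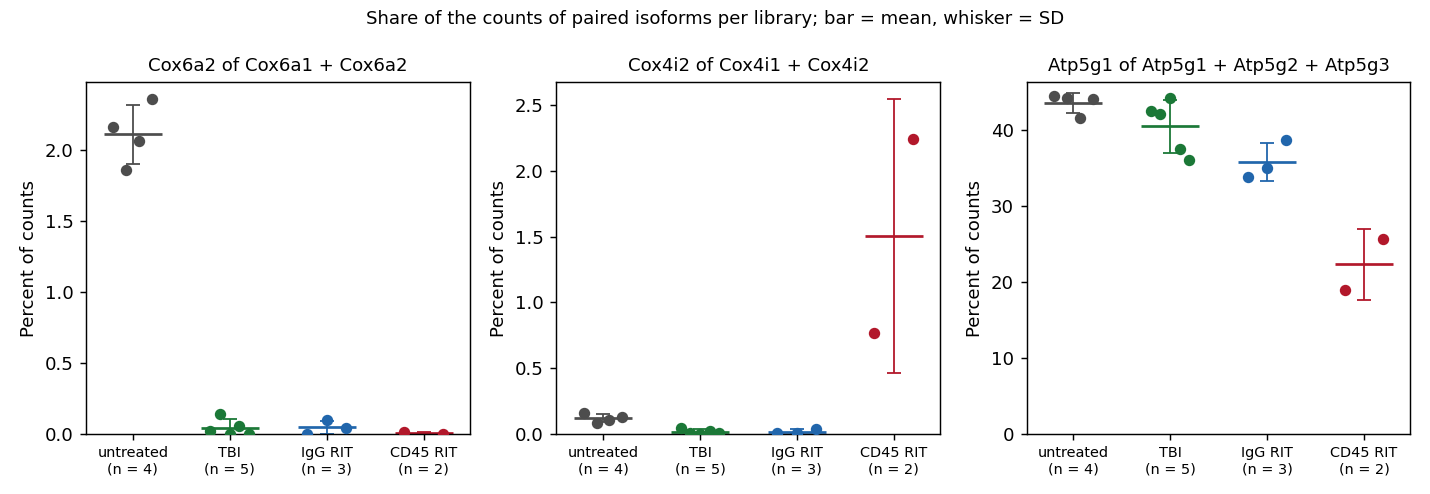
Percent of counts taken by Cox6a2 of the Cox6a pair (left), Cox4i2 of the Cox4i pair (middle) and Atp5g1 of the 3 Atp5g genes (right) in each library by group; bars are means and whiskers SD. Cox6a2 is at 1.86% to 2.36% only in untreated libraries, Cox4i2 reaches 0.765% and 2.24% in CD45 RIT, and Atp5g1 is lowest in CD45 RIT at 19.0% and 25.7%.

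In the same list of 9, of which 6 were tested, 3 fell in CD45 RIT against untreated: Ndufab1 (the acyl carrier protein of complex I, -1.76), Cycs (cytochrome c, -1.69) and Cyc1 (cytochrome c1 of complex III, -0.89). Cycs had 166, 189, 174 and 212 CPM in untreated and 53.9 and 61.2 CPM in CD45 RIT libraries (adjusted p = 5.61e-04). Both CD45 RIT values lay below all other libraries, which ranged from 140 to 264 CPM. Atpif1, the inhibitor protein of ATP synthase, rose in IgG RIT: it had 947, 1123, 884 and 906 CPM in untreated and 2525, 2870 and 2587 CPM in IgG RIT, a log2 fold change of 1.46 (adjusted p = 0.0170), which was 1.41 without IgG RIT replicate 2 (adjusted p = 0.0539). TBI replicate 6 had 2057 CPM of Atpif1 and the other TBI libraries 749 to 1031 CPM.

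For the lists that follow, the shares of all genes called against untreated were 14.5% higher and 18.6% lower in CD45 RIT and 5.75% higher and 10.7% lower in IgG RIT. Of 45 assembly factors tested, 3 rose and 6 fell in CD45 RIT (6.67% and 13.3%) and 1 rose and 4 fell in IgG RIT (2.22% and 8.89%), with median log2 differences of -0.73 and -0.62, against -0.37 and -0.42 over all genes tested. Both shares lay below those of all genes in both groups. Sco1, a copper chaperone of complex IV, was at least 110-fold lower in CD45 RIT than in untreated, and Ndufaf5, which modifies Ndufs7, at least 81.9-fold lower, both against the floor; these 2 are named after their values were seen. Of 77 mitochondrial ribosomal protein genes tested, 2 rose and 31 fell in CD45 RIT (2.60% and 40.3%), 0 rose and 7 fell in IgG RIT (9.09% lower), and 0 were called in TBI by edgeR, with 4 at an unadjusted p under 0.05. Of 17 genes of mitochondrial transcription and replication, 2 rose and 2 fell in CD45 RIT (11.8% each) and 0 rose and 4 fell in IgG RIT (23.5%).

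Of 13 nuclear regulators of respiratory genes, 3 rose and 3 fell in CD45 RIT (23.1% each), and 1 rose and 2 fell in IgG RIT (7.69% and 15.4%). Nrf1, a transcription factor of many respiratory genes, had 120, 82.5, 123 and 109 CPM in untreated and 217, 212 and 213 CPM in IgG RIT and rose there by 0.97 (adjusted p = 0.00570; 0.45 and 0.0665 with no scaling), while its CD45 RIT libraries were at 102 and 86.9 CPM. Tfam, which packages mitochondrial DNA, had a log2 difference of 0.01 in CD45 RIT and -0.81 in IgG RIT. Gabpa and Lrpprc (a stabiliser of mitochondrial messages) differed by -0.07 and -0.02 in CD45 RIT. Polrmt, the mitochondrial RNA polymerase, had 27.6 and 0.0481 CPM in the 2 CD45 RIT libraries against 22.7 to 47.2 CPM in untreated, and Ppargc1a had at most 2.50 CPM in any library. Tfam, Gabpa, Lrpprc, Polrmt and Ppargc1a were not called in either comparison.

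In other pathways of energy metabolism, 10 of 18 glycolysis genes fell and 1 rose in IgG RIT (55.6% and 5.56%), and 8 fell and 1 rose in CD45 RIT (44.4% and 5.56%). Of 14 citric acid cycle genes 2 fell in each group (14.3%), and 1 rose in IgG RIT and 0 in CD45 RIT. Of 15 mitophagy genes 4 rose and 1 fell in IgG RIT (26.7% and 6.67%) and 8 rose and 2 fell in CD45 RIT (53.3% and 13.3%), among them Bnip3l, a receptor that removes mitochondria from maturing red cells and named after its values were seen, at 1.92 and 2.50 on the log2 scale. Of 13 genes of ubiquinone synthesis 3 fell in each of the 2 groups (23.1%) and 0 rose.

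Promoter sequence was compared because nuclear members fell together in CD45 RIT while others were not called. RefSeq start-site windows of 300 bases (GRCm38.p6) were matched to 69 of 83 nuclear symbols, 74 windows in all, and searched on both strands for GCGCA followed by any base and GCGC (NRF1), CCGGAAG (GABPA) and AAGATGG (YY1). The GABPA and YY1 letters can share the bases AAG. NRF1 letters were found in 24.3% of the members' windows and 4.60% of all 32851 windows, GABPA letters in 23.0% and 8.86%, and YY1 letters in 14.9% and 6.34%. At least 1 of the 3 was found in 54.1% of members' windows and 17.95% of all windows. Among members, 57.6% of the 33 windows of genes that fell in CD45 RIT and 53.8% of the 39 windows of tested genes that were not called held at least 1. By motif, these shares were 24.2% and 25.6% for NRF1, 18.2% and 28.2% for GABPA, and 21.2% and 10.3% for YY1.

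The windows below are of 2 genes that fell and 2 that did not, with motif letters in capitals. Each runs from 150 bases before to 30 bases after the start. Every gene shown held at least 2 of the motifs in its 300-base window. The windows are thus examples of the letters and cannot show whether genes that fell differ from the others.
Ndufs6 (fell), chr13:73328453-73328632, minus strand: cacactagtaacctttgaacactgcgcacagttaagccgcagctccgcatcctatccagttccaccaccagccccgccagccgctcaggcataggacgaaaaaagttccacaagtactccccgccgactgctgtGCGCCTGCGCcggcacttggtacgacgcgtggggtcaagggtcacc
Sdhd (fell), chr9:50603820-50603999, minus strand: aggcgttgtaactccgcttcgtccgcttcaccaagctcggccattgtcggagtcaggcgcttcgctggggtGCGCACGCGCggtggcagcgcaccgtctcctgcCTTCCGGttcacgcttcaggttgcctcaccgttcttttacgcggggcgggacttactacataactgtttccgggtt
Atp5k (not called), chr5:108434370-108434549, minus strand: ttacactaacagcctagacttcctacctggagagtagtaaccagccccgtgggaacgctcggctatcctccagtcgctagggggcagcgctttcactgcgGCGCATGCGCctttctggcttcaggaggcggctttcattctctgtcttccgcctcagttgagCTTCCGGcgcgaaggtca
Cox6a1 (not called), chr5:115348929-115349108, minus strand: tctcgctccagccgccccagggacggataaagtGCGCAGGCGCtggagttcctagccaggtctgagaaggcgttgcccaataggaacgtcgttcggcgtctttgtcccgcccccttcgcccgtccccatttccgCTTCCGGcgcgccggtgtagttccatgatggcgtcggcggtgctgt

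Atp5k, a small subunit of the ATP synthase membrane part, had 129, 177, 125 and 122 CPM in untreated and 122 and 44.8 CPM in CD45 RIT libraries. CD45 RIT replicate 1 lay at the lower end of the untreated range and replicate 2 far below it.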

How the data were processed

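Gene counts of 14 sorted-marrow libraries were used as the authors deposited them, as raw counts per gene. Per the submitters' processing notes, STAR 2.7.7a, FastQC 0.11.9, edgeR 3.36.0 and the human build hg38 were named; the deposited identifiers are mouse, and 54587 of 55335, all 97 members among them, matched GENCODE M21 on GRCm38, each with the same coordinates. The counter, strand setting and treatment of reads with several matches are not given in the sources used here. SMART-Seq reads carry no molecular identifiers, so counts are reads, not molecules, and floors cover counting error only.

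Groups came from the labels. Genes with enough counts (edgeR filterByExpr, minimum count 10, minimum total 15) were fitted over all 4 groups with edgeR 4.0.16 (R 4.3.3, limma 3.58.1), TMM scaling and the quasi-likelihood test, with Benjamini-Hochberg adjustment over 21509 genes and calls at 0.05; scripts were tested on simulated data. A standard error is the absolute log2 fold change over the square root of F. Gene CPM use TMM-scaled library sizes, and summed CPM total counts. The floor was 3 counts per library. Copies were found with blastn 2.17.0+ at 95% identity or more over 100 bases. Python 3.11.15 and pandas 2.3.3 made the summaries.

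Named genes were all mitochondrial members, the 5 largest called rises and falls per comparison without overlap and with an average log2 CPM no lower than 3, fixed isoform pairs, complex II, and the highest member per complex. Members and lists were chosen with earlier results of these data known. Alternatives were RLE factors, no scaling, no filter, library sizes without mitochondrial or globin genes, a replicate block, DESeq2 1.42.0, each library left out, and, chosen after seeing the data, the chromosome 1 copies added and sums on TMM-scaled library sizes. The values of 1 nuclear member are not reported here, and the plot of nuclear genes by library leaves it out.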

Additional observations from a re-analysis of the deposited data

Results flagged for a closer look

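Of 146 sets of 4 or 5 libraries checked, 17 had 1 library standing far from the rest of its group. Chance alone gives about 1 in 20 for a single set. The sets share libraries and counts, so 17 of 146 cannot be read as an excess over chance. The test compared the gap to the nearest library with the whole range of the group.

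TBI replicate 6 gave 9 of them. It had 1000.1 CPM of Cox6a1 where the other TBI libraries had 526.2 to 560, 146 of Cox6b2 where they had 48.5 to 69.8, and 316 of Cox7a2 where they had 223 to 247. It had 209 CPM of Cox7b against 178 to 187, 306 of Ndufa2 against 205 to 224, and 462 of Ndufa4 against 321 to 357. It had 191 CPM of Ndufs6 against 133 to 147, 3420 of mt-Co1 against 1075 to 1633, and 149.5 of mt-Co2 against 49.7 to 74.1.

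Untreated replicate 2 stood apart in 5. Its nuclear complex I genes summed to 8427 CPM against 6105 to 6484 in the other untreated libraries, and complex III to 3292 against 2504 to 2615. It had 295 CPM of Ndufa2 against 208 to 221, 492 of Uqcr11 against 347 to 369, and an Atp5g2 share of the Atp5g counts of 6.64% against 7.33% to 7.45%. Untreated replicate 1 had a complex V ratio of 0.0171 against 0.00901 to 0.0104 and 11.8 CPM of mt-Atp8 against 5.17 to 6.10. Untreated replicate 3 had an Atp5g1 share of 41.7% against 44.1% to 44.5%.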

How the results depend on the processing

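Counts of called members depended on scaling. The share of all genes called was not counted under the alternatives, so these member counts have no such share beside them. For nuclear genes, RLE factors gave 2 calls in TBI, 15 in IgG RIT and 23 in CD45 RIT against untreated, and no scaling gave 21 in IgG RIT, 73 in CD45 RIT and 66 in CD45 RIT against TBI. For mitochondrial genes, RLE factors gave 4 in IgG RIT, and no scaling gave 1 in IgG RIT, 0 in CD45 RIT, 2 in CD45 RIT against TBI and 1 in CD45 RIT against IgG RIT. Without the filter, 1 mitochondrial gene was called in CD45 RIT. DESeq2 called 4 nuclear genes in TBI, 23 nuclear and 6 mitochondrial in IgG RIT, 1 mitochondrial between CD45 RIT and IgG RIT, and 10 nuclear and 4 mitochondrial between IgG RIT and TBI. With copies added the IgG RIT ratio was 0.519 and 3 mitochondrial genes were called in IgG RIT. With TMM-scaled library sizes the mean summed CPM of nuclear genes was 19024 in untreated (22818 on total counts), 20799 in IgG RIT (17418) and 12152 in CD45 RIT (8931), and of mitochondrial genes 5444 in untreated (6526) and 9415 in IgG RIT (7873). The cause was not tested.

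Replicate numbers did not pair the libraries: over 13 pairs the correlations ran from -0.0896 to 0.139. With the replicate block, calls were 0 nuclear in TBI and IgG RIT, 1 mitochondrial in CD45 RIT, and 21 nuclear and 2 mitochondrial in CD45 RIT against TBI.

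Leaving out 1 library at a time gave 0 to 3 nuclear calls in TBI, 0 to 21 in IgG RIT, 25 to 51 in CD45 RIT, 33 to 50 in CD45 RIT against IgG RIT, 32 to 49 in CD45 RIT against TBI and 0 to 9 in IgG RIT against TBI. Mitochondrial calls were 0 in TBI, 0 to 7 in IgG RIT, 0 to 6 in CD45 RIT, 0 to 3 in CD45 RIT against IgG RIT, 1 to 10 in CD45 RIT against TBI and 0 to 6 in IgG RIT against TBI. The mean ratio ran from 0.272 to 0.314 in untreated, 0.242 to 0.292 in TBI, 0.426 to 0.485 in IgG RIT and 0.499 to 1.02 in CD45 RIT, where the lone library was assumed to vary like the other groups in the gene fits.

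For named genes, 6719 of 7128 alternative values kept direction and side of the threshold, 215 lost a call, 192 gained one and 2 reversed: Cox7a2 in CD45 RIT at -0.64 with no scaling, and Sdhc in CD45 RIT against IgG RIT at -0.69 without CD45 RIT replicate 2 (0.54 without replicate 1). With 2 CD45 RIT libraries that differ in erythroid markers and gene number, single-gene values there rest on few samples.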
